A study of Mus musculus with 3 samples.

Results

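The genes described here are 10 genes of adipocytes and of lipid uptake, *Fabp4*, *Fabp5*, *Adipoq*, *Pparg*, *Cebpa*, *Cebpb*, *Lpl*, *Plin1*, *Plin2* and *Cd36*, of the 31053 genes in the deposited count files. They were selected on their levels, shares of cells and overlap with *Acan* detection in these same libraries, so all their values are given as a description and none was tested. Each gene was found by its symbol and read in 2 classes of cells, stromal cells and macrophages, in 3 single-cell libraries from day 5 masses. The animals were CD-1 female mice aged 6 to 8 weeks that received Matrigel implants under the ventral skin. The masses of the Vehicle and Palo groups held recombinant human BMP2, a protein that starts cartilage and bone formation at such a site, and those of the Matrigel-only group held none. Vehicle mice were given corn oil with DMSO by gavage, Palo mice were given palovarotene, an agonist of retinoic acid receptor gamma, at 4 mg/kg daily, and Matrigel-only mice were given nothing by mouth. Cells were freed with dispase from pooled masses and gave 1 library per group, so animals within a group cannot be told apart, and the Matrigel-only group differed from Vehicle in both BMP2 and gavage.

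Adipocytes develop from fibroblast-like progenitors of the connective tissue. In this process the transcription factor C/EBPβ acts early, and PPARγ and C/EBPα then maintain the adipocyte state and drive genes for lipid storage and secretion. The same PPARγ and lipid genes also serve macrophages, which take up fatty acids released by lipoprotein lipase, carry them on fatty acid binding proteins and store them in droplets coated by perilipins. Subcutaneous tissue, where the implants lay, normally holds fat.

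The libraries held 9249 Matrigel-only, 6065 Vehicle and 7905 Palo barcodes, with 44252421, 46317250 and 46901673 unique molecular identifiers (UMIs, each standing for 1 captured transcript molecule). After the filters on genes and mitochondrial UMIs, 8728, 5478 and 7297 cells remained. Cells with at least 1% of their UMIs from *Col1a1*, *Col1a2*, *Col3a1*, *Dcn* and *Lum* were called stromal, and numbered 2085, 1373 and 1184, with median depths of 9082, 17114 and 12955 UMIs. Cells under that limit with a UMI of *Csf1r* or *C1qa* were called macrophages, and numbered 5812, 3253 and 5661, with median depths of 3090.5, 3646 and 4254 UMIs. The 10 macrophage markers summed to 564, 228 and 403 CPM (UMIs of a gene in every 1000000 UMIs of the class) in stromal cells against 13824, 12057 and 12364 CPM in macrophages. Between 6 and 34 cells per library lay within 0.25 percentage points of that limit. No doublet caller was run, and pairs of libraries shared 11 to 21 barcode sequences. CPM values carry exact Poisson 95% intervals. Shares of cells were computed after thinning every cell to 3100 UMIs in stromal cells and 1400 in macrophages, with exact binomial intervals. The 207, 70 and 54 stromal cells and 567, 303 and 137 macrophages below these depths were left out of the thinned shares. With 1 library per group these intervals cover counting error within a library only, and no p-value was computed.

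The promoters of *Adipoq* and *Plin1* are printed because nearly all UMIs of these 2 genes lay in the same few barcodes, as described later. The sequences are the part of RefSeq's 250 bases before the gene start that lies outside annotated exons (build GRCm38.p6), and 7 of the 10 genes had an entry, *Fabp4*, *Fabp5* and *Lpl* having none in the table used. RefSeq's start of *Plin1* lies inside the gene interval given for it later, so 123 of its 250 bases are printed. Capitals mark a match to TTGCNNAA, letters recognised by C/EBP proteins. The *Adipoq* sequence lies on the plus strand at chr16:23146286-23146535 and the *Plin1* sequence on the minus strand at chr7:79732904-79733026.
Adipoq: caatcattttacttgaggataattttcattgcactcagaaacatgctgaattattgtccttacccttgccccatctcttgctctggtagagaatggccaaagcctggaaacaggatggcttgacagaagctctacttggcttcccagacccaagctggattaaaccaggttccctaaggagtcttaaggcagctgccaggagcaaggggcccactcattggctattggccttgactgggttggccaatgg
Plin1: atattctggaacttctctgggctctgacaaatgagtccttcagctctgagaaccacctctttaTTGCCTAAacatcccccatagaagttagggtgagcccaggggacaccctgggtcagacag
The motifs searched on both strands were TTGCNNAA, found in 9.56% of 32851 promoters of 250 bases, AGGTCA, a nuclear receptor motif (14.0%), DR1, its tandem arrangement with a 1-base spacer and a free letter in each copy (0.338%), and TATAAA, the TATA box (12.4%). DR1 can overlap AGGTCA. Of these 4 motifs the *Adipoq* sequence held 0, and the printed *Plin1* sequence held 1 match to TTGCNNAA, in capitals, reading TTGCCTAA. A match describes these letters and not a bound site.

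In stromal cells of the Vehicle library, compared with Matrigel-only, the level of *Fabp5* was higher and those of *Lpl*, *Fabp4* and *Cebpa* were lower, while *Cebpb* and *Plin2* differed by less than 2-fold. A gene was counted when its mean over the 3 libraries was at least 5 CPM and its CPM differed at least 2-fold. In that comparison 6 of the 10 genes reached 5 CPM, with 1 higher where 4.55% of 10311 genes were higher, and 3 lower where 9.97% were lower. In Palo over Vehicle stromal cells 1 of 6 was higher, against 7.45% of all genes, and 2 were lower, against 4.6%. In Palo over Matrigel-only stromal cells 0 of 6 were higher, against 0.825%, and 2 were lower, against 2.21% of 10299 genes. *Fabp5*, at 1.95-fold higher there, passed 2-fold when barcodes with adipocyte or endothelial markers, described later, were left out. The median log2 ratios of the 6 genes were -1.13, -0.12 and -0.62 in these comparisons, and those of all genes were -0.04, 0.02 and -0.03. *Adipoq*, *Pparg*, *Plin1* and *Cd36* stayed under the minimum in stromal cells. The 3 comparisons share libraries, and the rule used the same values, so nothing is read from these counts.

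In macrophages 8 of the 10 genes reached 5 CPM. *Fabp5* was highest in Vehicle, *Fabp4* in Matrigel-only, and *Pparg* was lowest in Vehicle. Vehicle over Matrigel-only macrophages had 1 of 8 genes higher, *Fabp5*, against 3.83% of 9551 genes, and 1 lower, *Fabp4*, against 2.65%. Palo over Vehicle macrophages had 1 higher, *Pparg*, against 1.83%, and 1 lower, *Fabp5*, against 4.7%. Scaling by edgeR's TMM factors shifted all macrophage ratios in this comparison by 0.20 on the log2 scale and moved the split over all genes from 175 higher and 449 lower to 285 higher and 318 lower, and *Lpl* then also passed 2-fold, with a log2 ratio of 1.05. Palo over Matrigel-only macrophages had 0 higher, against 0.984%, and 1 lower, *Fabp4*, against 1.7% of 9548 genes, and TMM moved the split over all genes from 94 higher and 162 lower to 144 higher and 105 lower. Median log2 ratios were -0.09, 0.24 and 0.28 for the 8 genes and 0.00, -0.17 and -0.17 for all genes.

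**Figure D1:**
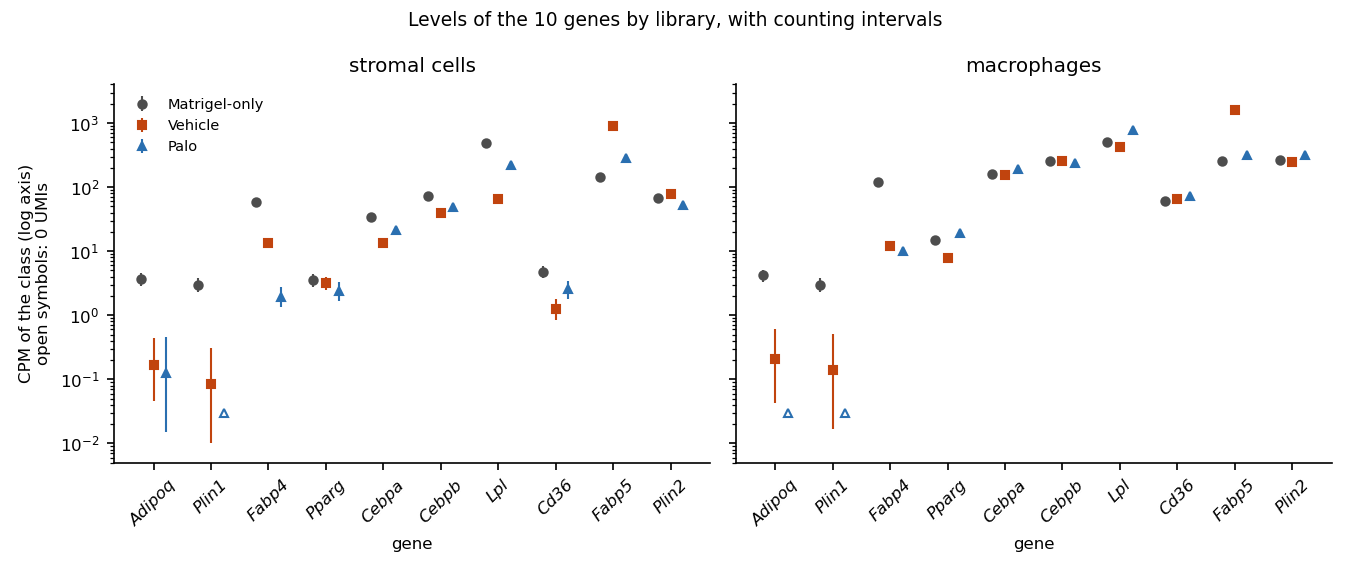
CPM of the 10 genes (log y axis) in stromal cells and in macrophages of the Matrigel-only, Vehicle and Palo libraries, with exact Poisson 95% intervals, and open symbols at an arbitrary height for 0 UMIs. *Fabp5* is higher in Vehicle than in the other libraries in both classes, at 892 CPM in stromal cells and 1573 CPM in macrophages, while stromal *Lpl* in Vehicle, at 66.4 CPM, lies below the 494 CPM of Matrigel-only and the 223 CPM of Palo.

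*Adipoq* (ENSMUSG00000022878, chr16:23146536-23158028, plus strand), which encodes the adipocyte hormone adiponectin, was near 0 in both classes. In stromal cells it had 74 UMIs in Matrigel-only, 4 UMIs in Vehicle and 2 UMIs in Palo, or 3.69, 0.17 and 0.13 CPM. In macrophages it had 85, 3 and 0 UMIs, or 4.17, 0.21 and 0 CPM. With the 0 of Palo set to 3 UMIs, Palo was 38.2-fold lower than Matrigel-only, and the counting interval of the log2 ratio ended at -4.93. *Plin1* (ENSMUSG00000030546, chr7:79720218-79732903, minus strand) encodes perilipin 1, the coat protein of adipocyte lipid droplets. Its UMIs numbered 60, 2 and 0 in stromal cells and 61, 2 and 0 in macrophages. With 0 set to 3 UMIs, Palo was 15.8-fold and 27.4-fold lower than Matrigel-only, the log2 intervals ending at -3.64 and -4.43. Both genes were therefore highest in the Matrigel-only library in either class, and almost all of their UMIs came from few barcodes.

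Barcodes with at least 3 of 12 mature adipocyte markers (*Adipoq*, *Plin1*, *Plin4*, *Cidec*, *Cidea*, *Lep*, *Retn*, *Car3*, *Aqp7*, *Adrb3*, *Tshr* and *Thrsp*) numbered 26 of 9249 in Matrigel-only, 10 of 6065 in Vehicle and 0 of 7905 in Palo. These are 0.281% (exact interval 0.184 to 0.412%), 0.165% (0.0791 to 0.303%) and 0%, with an upper limit of 0.0467%. Lowering the requirement to 2 markers left Palo at 0 barcodes. They held 936 of 952 *Adipoq* UMIs and 432 of 469 *Plin1* UMIs of the whole Matrigel-only library, and 581 of 585 and 203 of 216 of the Vehicle library. *Adipoq* was detected in 25 of the 26 Matrigel-only barcodes and in 10 of the 10 Vehicle barcodes, *Plin1* in 24 and 7, and *Car3*, a carbonic anhydrase abundant in fat, in 23 and 8. *Cidea*, a marker of brown fat, was at 0 UMIs in all of them, and so was each T/NK marker. The 5 stromal markers summed to 8026 and 8308 CPM and the macrophage markers to 447 and 186 CPM in these barcodes. The stromal sums lay below the 75162 and 53301 CPM of the Matrigel-only and Vehicle stromal cells. Of the 15 Matrigel-only barcodes that passed the filters, 5 were classed as stromal cells, 5 as macrophages and 5 as neither.

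Most adipocyte-marker barcodes of the Vehicle library fell outside the filters. In Vehicle 9 of 10 were left out, 5 for mitochondrial UMIs, 3 for more than 6000 genes and 1 for both, and in Matrigel-only 11 of 26 were left out, 9 for mitochondrial UMIs and 2 for genes. Of the 15 that passed in Matrigel-only, 5 had been classed as stromal cells, 5 as macrophages and 5 as neither. The 10 endothelial markers, for comparison, were met at 3 or more by 5, 10 and 1 barcodes, and none of these was among the adipocyte-marker barcodes. Summed over the 12 markers, the mature adipocyte list stood at 21.0, 1.99 and 0.632 CPM in stromal cells and at 38.1, 3.76 and 0.401 CPM in macrophages, with 10, 8 and 5 and with 11, 10 and 5 of 12 detected. How these barcodes came into the masses was not tested.

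**Figure D2:**
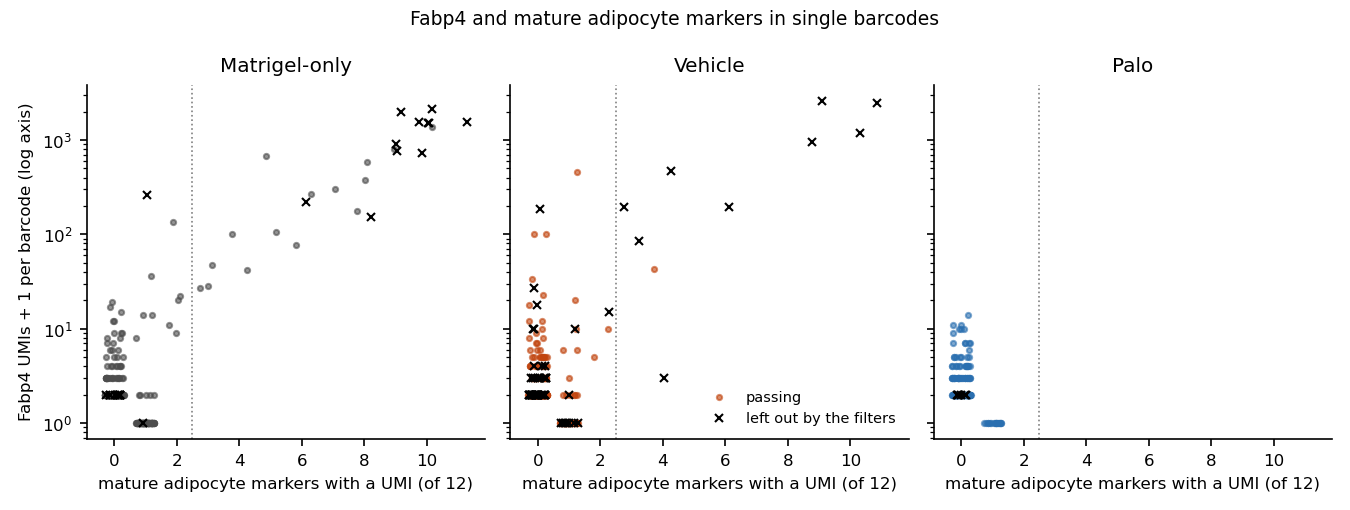
UMIs of *Fabp4* plus 1 per barcode (log y axis) against how many of 12 mature adipocyte markers had a UMI (x axis, spread sideways at random), for barcodes with at least 1 UMI of either, with crosses for barcodes the filters left out and a dotted line below 3 markers. Right of the line, the 26 Matrigel-only barcodes ran from 26 to 2131 *Fabp4* UMIs and the 10 Vehicle barcodes from 2 to 2618, and the Palo library had 0 such barcodes.

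*Fabp4* (ENSMUSG00000062515, chr3:10204088-10208576, minus strand) encodes the fatty acid binding protein of adipocytes, which is also made by capillary endothelium and some macrophages. Every adipocyte-marker barcode carried it, with a median of 479.5 UMIs in Matrigel-only and 334 in Vehicle. These barcodes held 17936 of 18879 *Fabp4* UMIs in Matrigel-only and 8210 of 9714 in Vehicle. The gene's library total was thus set by 26 and 10 barcodes. Outside them, 13 Matrigel-only, 13 Vehicle and 3 Palo barcodes still held 10 or more *Fabp4* UMIs. The highest of these held 259, 457 and 13 UMIs, and 6 of the 13 Vehicle ones carried endothelial markers.

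In stromal cells *Fabp4* stood at 57.9 CPM in Matrigel-only (interval 54.6 to 61.3), 13.4 in Vehicle (11.9 to 14.9) and 1.96 in Palo (1.33 to 2.78). Vehicle was 4.34-fold lower than Matrigel-only and Palo 6.82-fold lower than Vehicle. Without the 5 adipocyte-marker barcodes, which held 718 of 1161 UMIs, the Matrigel-only level was 22.2 CPM, and without its 1 such barcode Vehicle was at 11.6 CPM. Leaving these and the endothelial-marker barcodes out moved the Vehicle over Matrigel-only log2 ratio from -2.12 to -0.94, under the 2-fold limit, and the Palo over Matrigel-only ratio from -4.89 to -3.50. The Palo level remained below the others with or without these barcodes. Other *Fabp4*-rich barcodes, counted above over the whole libraries, were not left out unless they met the endothelial limit. Thinned shares of stromal cells with a *Fabp4* UMI were 3.06, 2.94 and 0.503%, so Matrigel-only and Vehicle were level in the share of cells while Palo was lower. In Vehicle 6 of 233 T/NK marker cells, used as a comparison, had a *Fabp4* UMI (2.58%, interval 0.951 to 5.52%, median depth 2056 UMIs). Whether T/NK cells make *Fabp4* themselves was not tested. At one depth of 1400 UMIs the T/NK share was 1.34% (0.215 to 4.31%) against 1.57% of Vehicle stromal cells, so the stromal share lay within the T/NK interval.

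In macrophages *Fabp4* stood at 119 CPM in Matrigel-only, 11.9 CPM in Vehicle and 10.2 CPM in Palo, with log2 ratios of -3.32 for Vehicle and -3.54 for Palo over Matrigel-only. A single barcode held 793 of the 2427 Matrigel-only UMIs, and the 5 adipocyte-marker barcodes held 2255. Without them the Matrigel-only level was 8.48 CPM (7.26 to 9.85), below Vehicle (11.7 CPM without endothelial-marker barcodes) and Palo (10.2 CPM), and the ratios turned to 0.46 and 0.27. Requiring both *Csf1r* and *C1qa* turned them to 0.82 and 0.48. The thinned shares of macrophages with a UMI were 0.991, 1.31 and 1.10%, with overlapping intervals. At the same depth the share of Vehicle T/NK marker cells was 1.34% (0.215 to 4.31%), so the Vehicle macrophage share lay within that interval. T/NK marker cells of Matrigel-only and Palo had 0 *Fabp4* UMIs, with upper limits of 11.2 and 9.49%, too wide to place the macrophage shares. Cells outside both classes held a further source, since 3 Vehicle barcodes with endothelial markers carried 657 of the 736 *Fabp4* UMIs there.

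The adipogenic transcription factors were read next. *Cebpb* (ENSMUSG00000056501, chr2:167688915-167690418, plus strand), which encodes the early factor C/EBPβ, stood at 72.4, 39.4 and 49.3 CPM in stromal cells of Matrigel-only, Vehicle and Palo. The corresponding thinned shares were 19.5, 10.8 and 13.1% of cells. Vehicle was the lowest and Palo lay between, each step being under 2-fold (log2 ratios -0.88 for Vehicle over Matrigel-only and 0.32 for Palo over Vehicle). Within the stromal subsets described with *Lpl* below, the order was not the same. Cells with a UMI of *Pi16*, *Dpp4* or *Clec3b* held 61.6, 71.2 and 50.5 CPM, and the *Cxcl12* subset held 188, 201 and 71.3 CPM. Vehicle stood above Palo in both, with an interval overlapping that of Matrigel-only. The remaining cells held 62.6, 38.9 and 42.4 CPM. In macrophages its levels were 254, 256 and 241 CPM, all close to each other, and the sign of its small ratios depended on the scaling: TMM moved Vehicle over Matrigel-only from 0.01 to -0.01, Palo over Vehicle from -0.09 to 0.11 and Palo over Matrigel-only from -0.07 to 0.10.

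*Cebpa* (ENSMUSG00000034957, chr7:35119293-35121928, plus strand), which encodes C/EBPα, had the same order as *Cebpb* over the whole stromal class, with 34.5 CPM in Matrigel-only (31.9 to 37.1), 13.3 in Vehicle (11.8 to 14.8) and 21.3 in Palo (19.1 to 23.7). Vehicle was 2.60-fold lower than Matrigel-only, and Palo 1.60-fold higher than Vehicle. The thinned shares, 9.67, 3.81 and 6.09%, followed the levels. By stromal subset, as described with *Lpl* below, the order of Vehicle and Palo was not the same. Cells with *Pi16*, *Dpp4* or *Clec3b* held 26.8, 19.8 and 18.0 CPM, and the *Cxcl12* subset held 116, 48.2 and 46.0 CPM. The Vehicle and Palo intervals overlapped in both. The remaining cells held 28.4, 14.7 and 25.6 CPM. In macrophages the levels were 160, 152 and 191 CPM, and no ratio passed 2-fold. Free RNA reporters bear on the stromal values, because 6 macrophage genes (*C1qa*, *C1qb*, *C1qc*, *Csf1r*, *Adgre1* and *Ms4a7*) were found in stromal cells at a median of 3.84, 1.28 and 2.82% of their macrophage level. Stromal *Cebpa* lay above that, at 21.5, 8.71 and 11.1% of its macrophage level, and so did stromal *Cebpb*, at 28.5, 15.4 and 20.5%.

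*Pparg* (ENSMUSG00000000440, chr6:115360951-115490399, plus strand), the nuclear receptor at the centre of adipogenesis, was sparse in stromal cells, with 71, 75 and 38 UMIs, or 3.54, 3.18 and 2.40 CPM. The intervals of all 3 libraries overlapped, and the thinned shares of 0.940, 0.987 and 0.696% also overlapped. A difference in stromal *Pparg* was not detectable at this depth, the Vehicle over Matrigel-only log2 ratio being -0.16 (-0.64 to 0.33). In macrophages *Pparg* was at 15.1 CPM in Matrigel-only (13.5 to 16.9), 7.80 in Vehicle (6.42 to 9.39) and 19.4 in Palo (17.8 to 21.1). Vehicle was thus the lowest, 1.94-fold under Matrigel-only and 2.49-fold under Palo, and the thinned shares were 1.61, 0.937 and 2.42%. The 5 adipocyte-marker barcodes among the Matrigel-only macrophages held 52 of the 308 *Pparg* UMIs. Without them that level was 12.6 CPM (11.1 to 14.3), nearer to Vehicle but still above it. The level also differed by macrophage set, and the Vehicle value was the lowest in each, though not apart from Matrigel-only in the *Stab1* set. Cells led by the set of *Mmp12*, *Itgax*, *Ear2* and *Dcstamp* held 60.4, 22.2 and 37.3 CPM. Those led by the set of *Hal*, *Retnla*, *Ltc4s* and *Arg1* held 15.1, 7.73 and 25.6 CPM. Those led by the set of *Stab1*, *Ms4a7*, *Ccl8* and *Ccl12* held 4.57, 3.19 and 7.90 CPM. Here the intervals of Matrigel-only (3.38 to 6.05) and Vehicle (2.04 to 4.74) overlapped, from 49 and 24 UMIs. The Matrigel-only *Mmp12* and *Hal* sets both took in adipocyte-marker barcodes. They held 33 and 42 *Adipoq* UMIs and 832 and 660 *Fabp4* UMIs. Their 60.4 and 15.1 CPM include these barcodes, and the set levels were not computed without them.

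*Lpl* (ENSMUSG00000015568, chr8:68880491-68907448, plus strand) encodes lipoprotein lipase, the secreted enzyme that frees fatty acids from circulating triglycerides. In stromal cells it stood at 494 CPM in Matrigel-only (484 to 504), 66.4 in Vehicle (63.2 to 69.8) and 223 in Palo (216 to 231). Vehicle was 7.44-fold lower than Matrigel-only, and Palo was 3.36-fold higher than Vehicle while still 2.21-fold lower than Matrigel-only. The thinned shares followed the same order, 58.8, 12.8 and 36.1% of stromal cells, and the unthinned shares were 74.4, 29.1 and 57.7%. In T/NK marker cells *Lpl* had 1, 2 and 0 UMIs. At one depth of 1400 UMIs the stromal shares, 41.8, 8.09 and 23.6%, lay above the upper limits of the T/NK shares, 11.2, 2.13 and 9.49%.

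Within the stroma *Lpl* differed by subset, cells with a UMI of *Acan* being set apart before the others. Cells with at least 0.1% of their UMIs from *Cxcl12*, a chemokine of perivascular and adipose stroma, held 1304, 916 and 235 CPM. Of the cells left, those with a UMI of *Pi16*, *Dpp4* or *Clec3b*, genes of universal fibroblast progenitors, held 461, 307 and 267 CPM, and the remaining cells held 231, 30.9 and 108 CPM. Cells with *Acan*, the gene of the cartilage proteoglycan aggrecan, held 34.3 CPM in Vehicle. The *Pi16*, *Dpp4* or *Clec3b* group made up 1574 of the 2085 Matrigel-only cells, 138 of the 1373 Vehicle cells and 808 of the 1184 Palo cells, whereas *Acan* cells numbered 1, 779 and 4. The *Cxcl12* subset numbered 202, 29 and 60 cells, so its Vehicle level rests on 228 *Lpl* UMIs from 29 cells. It held 40 of 74 stromal *Adipoq* UMIs in Matrigel-only and 3 of 4 in Vehicle, these 3 in 1 cell. It thus took in adipocyte-marker barcodes in Matrigel-only, and its Vehicle level may include the 1 such barcode of Vehicle stroma. The 5 such barcodes of Matrigel-only stroma held 408 of 9904 *Lpl* UMIs. The subset levels were not computed without the adipocyte-marker barcodes of either library. Outside the *Acan* cells Matrigel-only stood above Palo in each subset. Vehicle stood above Palo in the *Cxcl12* subset and in the *Pi16*, *Dpp4* or *Clec3b* subset, the reverse of the order in the class as a whole, and below Palo in the remaining cells. Subset sizes and levels within subsets differed together, and their parts in the class values were not separated. These subsets are ranges of detection, which deepens with UMIs per cell, and not cell types.

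In macrophages *Lpl* had another order, with 513 CPM in Matrigel-only, 427 CPM in Vehicle and 770 CPM in Palo, and thinned shares of 22.3, 11.0 and 31.0%. Palo was 1.80-fold above Vehicle, and its log2 ratio over Matrigel-only was 0.59. Its level was highest in cells led by the *Mmp12* set, at 1933, 1732 and 1906 CPM, and lowest in cells led by the *Stab1* set, at 83.0, 86.7 and 144 CPM. Cells led by the set of *Hal*, *Retnla*, *Ltc4s* and *Arg1* were between, at 776, 346 and 1061 CPM. The Matrigel-only set levels include adipocyte-marker barcodes, which held 480 of the class's 10456 *Lpl* UMIs. The Vehicle value was concentrated, as the 329 cells led by the *Mmp12* set held 67.4% of the class's *Lpl* UMIs, against 33.7% in Matrigel-only and 39.9% in Palo.

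*Cd36* (ENSMUSG00000002944, chr5:17781690-17888801, minus strand) encodes a scavenger receptor and fatty acid translocase. In macrophages it was similar across libraries, with 60.4 CPM in Matrigel-only (57.1 to 63.9), 66.3 in Vehicle (62.2 to 70.7) and 73.9 in Palo (70.7 to 77.2). The thinned shares were 5.66, 6.09 and 7.39%. By set it stood at 16.4, 37.7 and 33.2 CPM in cells led by the *Stab1* set, at 110, 106 and 111 CPM in those led by the *Hal* set and at 113, 104 and 115 CPM in those led by the *Mmp12* set, so that the last 2 sets hardly differed between libraries. In stromal cells *Cd36* had 95, 30 and 40 UMIs, or 4.74, 1.27 and 2.53 CPM. The Vehicle value was 1.92% of the macrophage level, within the 1.20 to 2.40% range of the free RNA reporters. Its UMIs were unevenly spread, with 8 of the 30 in 1 cell. That cell held all *Cd36* UMIs of the Vehicle *Cxcl12* subset, so the subset's 32.1 CPM describes 1 of its 29 cells. *Acan* cells stood at 0.790 CPM and the remaining cells at 0.544 CPM. The log2 ratio of Vehicle cells with over those without *Acan* was -1.31. It no longer passed 2-fold once the 1 adipocyte-marker barcode of Vehicle stroma was left out. The source of the other UMIs was not tested. The Palo value, 3.42%, was just over the reporters' 2.56 to 3.38%, and the Matrigel-only value, 7.84%, was above 3.21 to 3.97%.

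**Figure D3:**
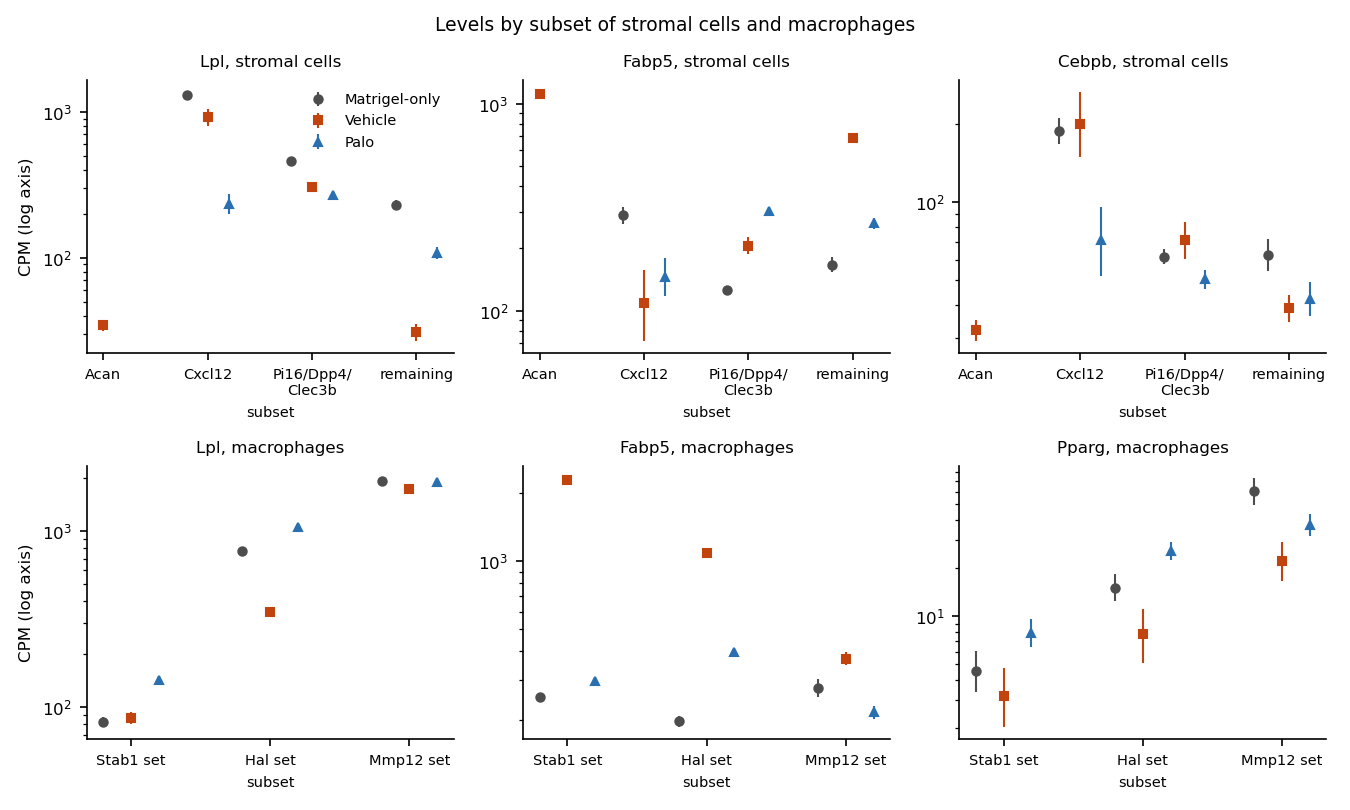
CPM (log axis, exact Poisson 95% intervals) of *Lpl*, *Fabp5* and *Cebpb* by stromal subset and of *Lpl*, *Fabp5* and *Pparg* by leading macrophage set (x axes), in the 3 libraries, with the *Acan* subset drawn for Vehicle alone. Macrophage *Lpl* separates the *Mmp12* set (1933, 1732 and 1906 CPM) from the *Stab1* set (83.0, 86.7 and 144 CPM) in every library, and *Fabp5* of the Vehicle *Stab1* set stands at 2285 CPM.

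*Fabp5* (ENSMUSG00000027533, chr3:10012548-10016607, plus strand) encodes the epidermal-type fatty acid binding protein, an intracellular carrier of fatty acids found in skin and in macrophages. In stromal cells it stood at 146 CPM in Matrigel-only (141 to 152), 892 in Vehicle (880 to 904) and 286 in Palo (278 to 294). Vehicle was 6.09-fold higher than Matrigel-only, Palo was 3.12-fold lower than Vehicle, and Palo was 1.95-fold higher than Matrigel-only. The 5 adipocyte-marker barcodes held 218 of the 2935 Matrigel-only UMIs, and without them that level was 136 CPM. Palo over Matrigel-only passed 2-fold once adipocyte- and endothelial-marker barcodes were left out. The thinned shares were 19.9, 68.3 and 33.8% of stromal cells, and T/NK marker cells carried a UMI in 11.3, 9.87 and 8.33%, at median depths of 1369, 2056 and 2021.5 UMIs. At one depth of 1400 UMIs the stromal shares were 11.0, 51.0 and 20.5%, and the T/NK shares 10.3% (2.34 to 26.6%, 31 cells), 6.65% (3.48 to 11.3%, 180 cells) and 3.14% (0.123 to 14.8%, 37 cells). The Vehicle and Palo stromal shares lay above the T/NK intervals. That of Matrigel-only lay within its interval, a wide one from 31 cells, so this share alone does not set it apart from T/NK cells. By level, stromal *Fabp5* was at 58.2, 56.7 and 90.1% of its macrophage level. The free RNA reporters ranged over 3.21 to 3.97%, 1.20 to 2.40% and 2.56 to 3.38%, below these values in each library. By subset the Vehicle library had 1117 CPM in *Acan* cells, 686 in the remaining cells, 206 in *Pi16*, *Dpp4* or *Clec3b* cells and 108 in *Cxcl12* cells. In Palo the corresponding values of the last 3 subsets were 264, 303 and 146 CPM.

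In macrophages *Fabp5* stood at 252 CPM in Matrigel-only (245 to 259), 1573 in Vehicle (1553 to 1594) and 317 in Palo (311 to 324). Vehicle was 6.25-fold higher than Matrigel-only and Palo 4.96-fold lower than Vehicle. The thinned shares of cells, 21.2, 36.1 and 26.1%, differed much less than the levels did. The gap came with a concentration of UMIs in few Vehicle cells, in which the highest 10% of macrophages held 79.7% of *Fabp5* UMIs, against 62.9% in Matrigel-only and 56.6% in Palo.

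Macrophages with *Fabp5* at 0.5% or more of their UMIs, a limit chosen after the values were seen, numbered 11 of 5812 in Matrigel-only, 265 of 3253 in Vehicle and 25 of 5661 in Palo. These shares were 0.189% (exact interval 0.0945 to 0.338%), 8.15% (7.23 to 9.14%) and 0.442% (0.286 to 0.651%). The cells held 16096 of 22585 *Fabp5* UMIs in Vehicle (71.3%). The limit cuts a range and not a type, with 140 Vehicle cells between 0.25 and 0.5% and 133 between 0.5 and 1%. Below the limit the level was 222 CPM in Matrigel-only, 497 CPM in Vehicle and 291 CPM in Palo, so that Vehicle remained 2.24-fold above Matrigel-only and 1.71-fold above Palo. Their median depth of 4321 UMIs was near the 3578 UMIs of the other Vehicle macrophages, 203 of the 265 were led by the *Stab1* set, and 0 were adipocyte-marker barcodes, whereas 3 of the 11 Matrigel-only cells were.

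These Vehicle cells differed from the other Vehicle macrophages in further genes, given as values with no test because the cells were chosen by *Fabp5*. *Chil3*, a chitinase-like protein, stood at 725 CPM against 32.4, *Cd163*, the haemoglobin scavenger receptor, at 1665 against 142, *Ccl24*, an eosinophil chemokine, at 6669 against 601, and *Il4ra*, a subunit of the interleukin 4 receptor, at 1873 against 466. *Gja1*, which encodes connexin 43, stood at 1340 against 124 CPM. Lower were *H2-Eb1*, a chain of MHC class II (130 against 1101 CPM), *Mgl2*, a lectin (86.9 against 610), and *Lyz2*, lysozyme (2619 against 9606). Macrophage and leukocyte genes were also lower, with *Csf1r* at 562 against 732 CPM, *C1qa* at 1069 against 2699, *C1qb* at 1117 against 2097, *Adgre1* at 309 against 494 and *Ptprc* at 249 against 521. The class itself required a UMI of *Csf1r* or *C1qa*, and 104 of the 265 cells had both. Among the other lipid genes *Lpl* stood at 69.4 against 463 CPM, *Cd36* at 10.7 against 71.9 and *Plin2* at 147 against 256, whereas *Fabp4* was higher, at 24.4 against 10.7 CPM. Cells richest in *Fabp5* were therefore not those richest in *Lpl* or *Cd36*.

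**Figure D4:**
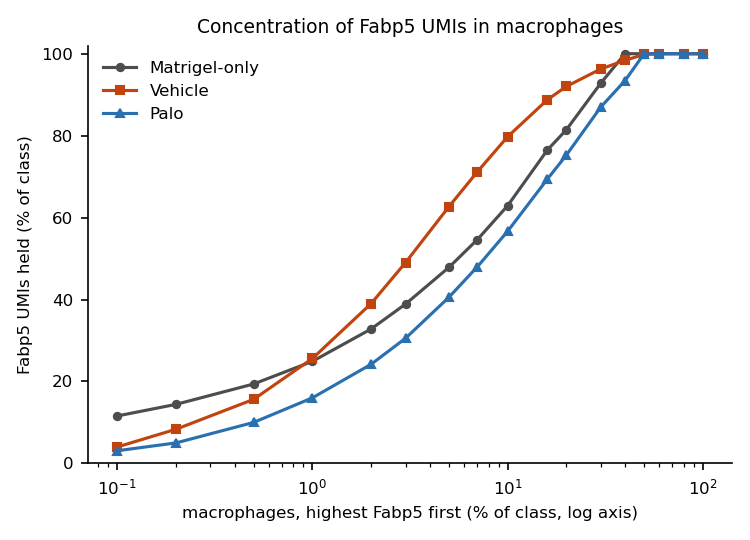
Cumulative share of macrophage *Fabp5* UMIs (percent, y axis) held by the highest-ranked share of macrophages (percent, log x axis) in each library. At 10% of macrophages the Vehicle curve is at 79.7%, Matrigel-only at 62.9% and Palo at 56.6%.

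*Plin2* (ENSMUSG00000028494, chr4:86648386-86670060, minus strand) encodes perilipin 2, the droplet coat protein of cells other than mature adipocytes. It differed little between libraries, with 68.1, 77.6 and 52.6 CPM in stromal cells and 265, 246 and 320 CPM in macrophages. Every ratio stayed under 2-fold, the largest being -0.56 on the log2 scale for Palo over Vehicle stromal cells (-0.68 to -0.44). The thinned stromal shares were 18.7, 20.9 and 15.2%, while the unthinned shares were 42.0, 63.8 and 45.2%. Without thinning the deeper Vehicle cells thus appeared further from the others than their level was.

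The overlap of these genes with *Acan* was read within the Vehicle stromal cells, of which 779 had an *Acan* UMI and 594 had none, at median depths of 17327 and 16422.5 UMIs. Cells with *Acan* had more *Fabp5*, 1117 against 568 CPM (log2 ratio 0.97, interval 0.93 to 1.02), and less *Lpl*, 34.3 against 113 CPM (log2 ratio -1.71, -1.87 to -1.56). The cells without *Acan* were not alike in *Lpl*. Of these, the 427 remaining cells stood at 30.9 CPM (27.0 to 35.2), near the cells with *Acan*. The 138 *Pi16*, *Dpp4* or *Clec3b* cells held 307 CPM and the 29 *Cxcl12* cells 916 CPM. *Lpl* was the 1 gene of the 6 over 5 CPM that passed 2-fold lower, against 4.06% of 10114 genes, and 0 passed 2-fold higher, against 2.58%. *Cebpb* (32.1 against 50.0 CPM) and *Cebpa* (10.9 against 16.7 CPM) were lower with *Acan* by less than 2-fold. *Plin2* was 84.7 against 67.4 CPM, and *Fabp4* was level at 13.4 against 13.2 CPM. Median log2 ratios were -0.29 for the 6 genes and -0.01 for all genes.

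The thinned shares with and without *Acan* had the same order, 81.1 against 50.4% for *Fabp5* and 7.74 against 19.8% for *Lpl*. In the remaining cells without *Acan* the *Lpl* share was 7.01%. Of the 1172 Vehicle stromal cells with a *Fabp5* UMI 62.3% had *Acan*, and of the 399 with an *Lpl* UMI 46.9% did, beside 56.7% of all Vehicle stromal cells. The adipocyte genes were nearly absent on both sides, with 0 and 4 *Adipoq* UMIs and 1 and 1 *Plin1* UMIs. When at least 3 *Acan* UMIs were required, the *Fabp5* ratio was 1.02, just past 2-fold, and that of *Lpl* was -2.01.

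**Figure D5:**
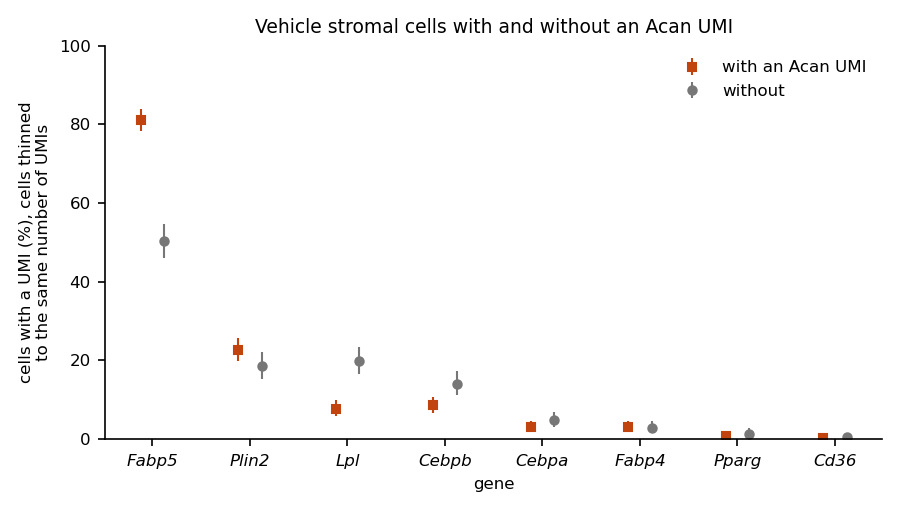
Share of Vehicle stromal cells with a UMI (percent, y axis, exact 95% binomial intervals) for the 8 of the 10 genes named on the x axis, after thinning cells to 3100 UMIs, in the 761 deep enough cells with an *Acan* UMI (squares) and the 542 without (circles). *Fabp5* stands at 81.1 against 50.4% and *Lpl* at 7.74 against 19.8%, while *Adipoq* and *Plin1* are not drawn.

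Further genes of these pathways were read from lists chosen with earlier results known, each counted as above beside the shares of all genes already given. In Vehicle over Matrigel-only stromal cells 0 of 13 measured adipogenic regulators were higher and 6 were lower. *Ebf2*, a factor of adipose progenitors, stood at 128, 19.4 and 72.4 CPM in Matrigel-only, Vehicle and Palo, and *Klf4* at 386, 106 and 306 CPM. In Palo over Vehicle 4 of 13 were higher and 0 lower, and in Palo over Matrigel-only 0 passed 2-fold either way. Of 17 preadipocyte genes, 2 were higher and 10 lower in Vehicle over Matrigel-only, where 4.55% of all genes were higher and 9.97% lower. In Palo over Vehicle 7 were higher and 2 lower, against 7.45% and 4.6%. This list includes *Pi16*, *Dpp4* and *Cxcl12*, which also define the stromal subsets described with *Lpl*. The sizes of those subsets differed between libraries, and the count was not separated from them. *Dlk1*, which encodes preadipocyte factor, stood at 122, 2.03 and 168 CPM, and *Dpp4* at 212, 12.5 and 121 CPM. *Cd24a*, a surface marker used to sort adipocyte progenitors, went the other way with 2.14, 70.6 and 2.15 CPM. In Palo over Matrigel-only 0 of 17 were higher and 3 were lower, *Col4a1*, *Pi16* and *Gsn*.

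Among 15 measured genes of fatty acid uptake and binding, 3 were higher and 3 lower in Vehicle over Matrigel-only stromal cells. Besides *Fabp5*, *Fabp7*, a binding protein of the nervous system (0.748, 19.4 and 0.316 CPM), and *Slc27a3*, an acyl-CoA synthetase of the fatty acid transporter family (42.6, 153 and 34.4 CPM), were higher. Besides *Lpl* and *Fabp4*, *Angptl4*, a secreted inhibitor of lipoprotein lipase, was lower (145, 61.1 and 137 CPM). Without the adipocyte- and endothelial-marker barcodes the 3 lower became 2, since *Fabp4* no longer passed. Palo over Vehicle had 2 higher and 4 lower. Of 15 genes of lipid droplets and oxidation 1 was higher, *G0s2*, an inhibitor of triglyceride lipase (25.0, 79.1 and 5.87 CPM), and 1 lower, *Cpt1a*, which admits fatty acids to mitochondria (45.1, 14.1 and 32.5 CPM). Of 12 adipocyte products 0 were higher and 1 lower, *Mgll*, a monoglyceride lipase (62.4, 29.3 and 33.8 CPM). The list of lipoprotein uptake and cholesterol handling had 2 of 19 higher, among them *Scarb1*, the HDL receptor (4.69, 23.6 and 6.06 CPM), and 4 lower.

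The same lists were then read in macrophages. In Vehicle over Matrigel-only 1 of 13 adipogenic regulators was higher, *Nr1h3*, which encodes the oxysterol receptor LXRα (9.67, 27.3 and 10.4 CPM), and 0 were lower. Of 24 genes of lipoprotein uptake and cholesterol handling 4 were higher and 0 lower, among them *Olr1*, an oxidised LDL receptor (0.540, 17.8 and 1.17 CPM), and *Msr1*, a scavenger receptor (131, 277 and 160 CPM). In Palo over Vehicle 1 of these 24 was higher, *Trem2*, a lipid-sensing receptor (107, 183 and 376 CPM), and 3 were lower. Of 15 fatty acid genes 3 were higher and 2 lower in Vehicle over Matrigel-only, and 0 higher and 2 lower in Palo over Vehicle. Without the adipocyte- and endothelial-marker barcodes the 2 lower in Vehicle over Matrigel-only became 1, since *Fabp4* no longer passed. Of 13 adipocyte products 2 were lower in Vehicle over Matrigel-only, *Scd1* and *Car3* (24.3, 2.30 and 0.109 CPM). *Car3* is 1 of the 12 mature adipocyte markers, and 5 Matrigel-only barcodes with at least 3 of them were classed as macrophages. Without the adipocyte- and endothelial-marker barcodes *Car3* stood at 1.92, 2.31 and 0.109 CPM, and 0 of 10 adipocyte products passed 2-fold in either direction. Of 13 genes of lipid droplets and oxidation 1 was higher, *Hilpda*, a droplet protein induced by low oxygen (15.0, 37.9 and 11.3 CPM), and 0 were lower. Of 7 preadipocyte genes 1 was higher, *Ly6a* (30.8, 192 and 31.3 CPM), and 1 lower, *Pi16* (17.9, 8.36 and 9.98 CPM).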

How the data were processed

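Single cells of day 5 masses were profiled with 10x Genomics chemistry, 1 library per group. The UMI counts per barcode and gene that the authors deposited came from Cell Ranger 3.0.2 on mm10, with no normalization, and were used as deposited. Seurat version 3 is named in their processing notes. As in the study's methods, barcodes with fewer than 200 or more than 6000 genes, or over 5% mitochondrial UMIs, were left out. No doublets were called beyond that upper limit on genes.

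Classes, CPM, exact Poisson and Clopper-Pearson 95% intervals, hypergeometric thinning and conditional binomial intervals of ratios were computed with Python 3.11.15, numpy 2.4.6, scipy 1.17.1 and pandas 2.3.3. Figures used matplotlib 3.10.9, and edgeR 4.0.16 in R 4.3.3 gave TMM factors for 1 alternative. Ratios were checked on simulated counts. The 35 repeated symbols did not include the 10 genes. For a ratio, a level of 0 was set to 3 UMIs. Macrophages were assigned to the set of 4 genes with the largest UMI sum, and T/NK marker cells had at least 2 of 8 markers.

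The 10 genes and all lists were chosen with earlier results of these data known. From each list up to 3 genes with the largest ratio each way among those with a mean of 5 CPM could be named, other named genes being chosen after their values were seen. Cell filters, class limits, scaling, weighting, added CPM, minimum level and *Acan* detection were varied. Leaving out adipocyte- and endothelial-marker barcodes was added after the data were seen. With 1 library per group no test between conditions was possible.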

Additional observations from a re-analysis of the deposited data

Results flagged for a closer look

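*Lpl* went in opposite directions in the 2 cell classes when Palo was set against Matrigel-only, and is listed for that reason. In stromal cells Palo was lower, with a log2 ratio of -1.14, and in macrophages it was higher, with a log2 ratio of 0.59. Each value rests on 1 library per group, and the difference between the classes was not tested.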

How the results depend on the processing

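No paired analysis was possible because each group had 1 library, and for the same reason no replicate could be left out. Of 66 ratios, 25 passed 2-fold, 10 of them of genes under the 5 CPM minimum, and all 25 kept their side of that limit with a 10% mitochondrial limit, all barcodes, stromal limits of 0.5% or 2%, or TMM. Another minimum CPM changes the counts below but not a ratio. Of the 25, 24 did so with mixed droplets left out, 24 with cells weighted equally, 21 with both *Csf1r* and *C1qa* required, 21 without adipocyte- and endothelial-marker barcodes and 14 with 5 CPM added. *Fabp4* in macrophages reversed, Vehicle over Matrigel-only to 0.82 with both *Csf1r* and *C1qa* and to 0.46 without those barcodes, and Palo over Matrigel-only to 0.48 and 0.27. Fewer of its barcodes then entered the sums.

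Counts of the 10 genes past 2-fold moved as follows. In the main setting 6 of them were measured in stromal cells and 8 in macrophages. The share of all genes under each setting is not given beside these counts, so nothing is read from them. In macrophages, Vehicle over Matrigel-only, main 2, the count was 4 at 10% mitochondrial UMIs, 4 at a minimum of 1 CPM and 4 with none, and 1 with both genes required, equal weights or the marker barcodes left out. For Palo over Vehicle, main 2, it was 4 at 10% or with all barcodes and 1 with 5 CPM added. For Palo over Matrigel-only, main 1, it was 2 at 10% or with all barcodes, 3 at 1 CPM or none, and 0 with both genes or without marker barcodes. In stromal cells it went from 4 to 7 (Vehicle over Matrigel-only) and from 2 to 4 (Palo over Matrigel-only) at 1 CPM or none. For *Acan* it went from 1 to 2 with all barcodes, mixed droplets left out, equal weights, 1 CPM, no minimum or 3 *Acan* UMIs.

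Counts over all genes, in the order Vehicle over Matrigel-only, Palo over Vehicle and Palo over Matrigel-only, were 1497, 1242 and 313 in stromal cells and 619, 624 and 256 in macrophages. A minimum of 1 CPM gave 2378, 2048 and 701 and 1180, 1217 and 616, since more sparse genes entered, and no minimum gave 4114, 3551 and 1823 and 2455, 2593 and 1691. Adding 5 CPM gave 799 and 118 for the last 2 stromal comparisons and 350, 371 and 100 in macrophages. Depth limits *Adipoq*, *Plin1*, stromal *Pparg* and stromal *Cd36*, which had 95 UMIs or fewer in each class and library.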
